A study of Homo sapiens with 12 samples.

Results

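Docetaxel-resistant PC3 was compared with docetaxel-resistant DU145 at the level of messenger RNA. The comparison took all 3 libraries of each resistant line, 6 of the 12 in the series, and every gene that passed a filter on low counts, 24128 of the 38611 in the tables. PC3 and DU145 are human prostate cancer cell lines from metastases, both widely used as models of disease that no longer depends on androgen. Per the labels, each resistant line was raised from its parent by doubling docetaxel in the medium whenever the cells divided well. The starting dose was 10 for DU145 and 0.5 for PC3, and selection ended at an IC50 (half-maximal inhibitory concentration) of 1800 for DU145-R and 15 for PC3-R. The labels give these figures in nm/ml without saying what that means, so they are not converted, and the resistant lines also differ in the dose they had met and in the resistance they reached. There is 1 resistant line per parent, whether it was a clone or a pool is not stated, and the labels do not say whether its 3 libraries came from separate cultures. P-values therefore measure the spread between these libraries, which may be technical.

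Docetaxel is a taxane: it binds beta-tubulin inside the microtubule, stabilises the polymer and blocks chromosome segregation. Cells are known to tolerate taxanes by pumping them out through P-glycoprotein, the product of ABCB1, by changing tubulin isotypes or microtubule-associated proteins, or by raising the threshold for cell death. PC3 and DU145 also differ from the start in inherited losses, which makes the parental lines the background against which the resistant lines are read.

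The labelled lines were checked on a gene known to be damaged in PC3. CTNNA1, the alpha-catenin that ties cadherins to actin, lay between 2.17 and 2.32 CPM (counts scaled to 1000000 per library) in the resistant PC3 libraries and between 372 and 392 in resistant DU145. No library overlapped the other line, and the test of whether this line difference departed from that of the parents did not pass (adjusted p = 0.797, edgeR quasi-likelihood test). The libraries held 63997178 to 72530254 counts. The first resistant PC3 library stood further from the other two of its line by chi-square per gene (33.9 and 34.2) than those did from each other (16.6). By the SD of log2 differences it stood further only from the second (0.282), with 0.2627 from the third and 0.2628 between those. Without the first resistant PC3 library, 13728 genes differed between the resistant lines, against 14418 with it.

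Resistant PC3 and resistant DU145 differed widely. At an adjusted p under 0.05 (edgeR quasi-likelihood F test, Benjamini-Hochberg over all genes tested), 14418 genes differed, 59.8% of those tested, of which 7391 (30.6%) were higher in PC3 and 7027 (29.1%) lower. A difference of at least 1 log2 unit, a 2-fold difference, was found for 8321 genes (34.5%), 4226 higher and 4095 lower. The 3 libraries of one line did not overlap the 3 of the other for 66.5% of genes. Among the 12798 genes with at least 5 CPM in a resistant line, 43.2% were higher in PC3 and 38.1% lower. Both pairs of shares are the background for the counts of list members below, and a list near either pair does not stand out from it.

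Epithelial junction genes were mostly lower in resistant PC3. CDH1, which encodes E-cadherin, was at 70.1, 75.9 and 77.0 CPM in the resistant DU145 libraries and at 1.05, 1.58 and 0.454 in resistant PC3. The groups were far apart, with all DU145 libraries high and all PC3 libraries low (72.4-fold, log2 difference -6.19 ± 0.36 SE, adjusted p = 3.04e-08). DSP, which encodes desmoplakin of the desmosome, was at 186, 191 and 196 CPM in resistant DU145 and at 2.32, 2.07 and 1.65 in resistant PC3 (log2 -6.57 ± 0.20, adjusted p = 2.03e-11). LSR, a protein of tricellular junctions, was 159-fold lower in resistant PC3 and the polarity protein CRB3 163-fold lower.

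Of 31 tested genes of epithelial adhesion and identity, 18 were lower in resistant PC3, 7 were higher and 6 did not pass, with a median log2 difference of -1.04 against -0.01 over all genes tested. The membrane protease ST14 was also lower, at 4.36 to 7.70 CPM in resistant DU145 and at most 0.156 in resistant PC3. EHF, an epithelial transcription factor of the ETS family, was at 24.6, 27.6 and 23.6 CPM in resistant PC3 and at most 0.108 in resistant DU145 (log2 8.54 ± 0.31). The desmosomal plakophilin PKP1 (log2 6.38) and the claudin CLDN4 (log2 5.45), both singled out after their values were seen, were higher in resistant PC3 as well. DSC2, a desmosomal cadherin, was at 61.5 CPM in resistant DU145 and 63.2 in resistant PC3 and did not pass (log2 0.04, adjusted p = 0.702).

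In the parental lines the same 31 genes had a median line difference of +0.99, with 16 higher in PC3 and 10 lower. The departure of the line difference after selection from that before was called for 24 of the 31, against 42.1% of all genes tested. With only genes of at least 5 CPM in 3 libraries fitted, it was called for 8859 of 13240, a limit not applied to the list. CDH1 stood at 3.81 ± 0.68 CPM (SD, n = 3) in the DU145 parent and 9.94 ± 2.5 in the PC3 parent, so its line difference turned round. DSP did the same, from 0.835 ± 0.40 CPM in the DU145 parent to 10.8 ± 0.96 in the PC3 parent. LSR, CRB3 and EHF kept their direction, with parental log2 differences of -4.79, -6.78 and 6.56.

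**Figure D1:**
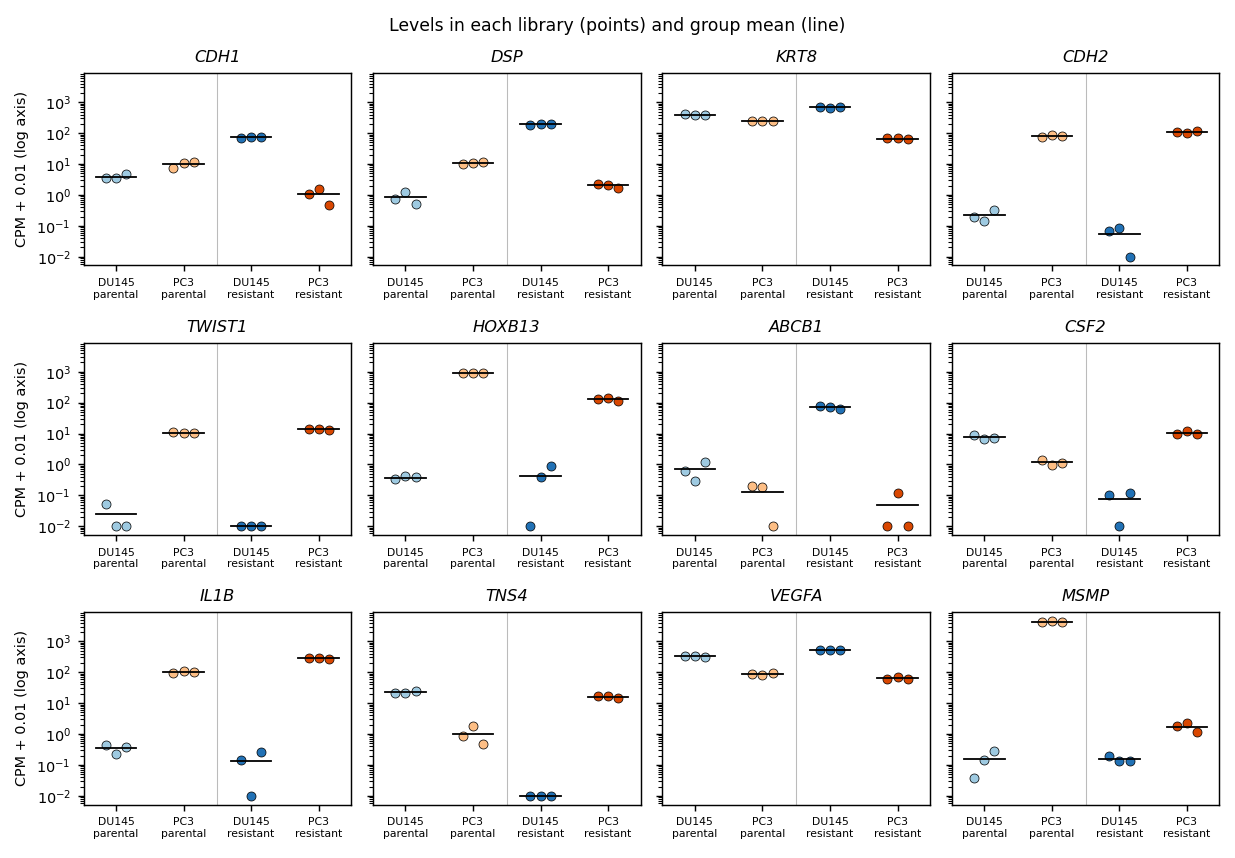
CPM plus 0.01 on a log axis for 12 genes, with 1 point per library, 3 libraries per group, and a line at the group mean; points on the bottom edge at 0.01 have no count. CDH1, DSP and ABCB1 are high in resistant DU145 (means of 74.3, 191 and 70.9 CPM) and low in the other groups, while IL1B is highest in resistant PC3 (286 CPM).

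Cadherins and factors of mesenchymal cells were high in resistant PC3. CDH2, which encodes N-cadherin, was at 110, 97.7 and 116 CPM in resistant PC3 and at 0.0603, 0.0771 and 0 in resistant DU145 (2352-fold, log2 11.15 ± 0.24). CDH11, a cadherin of mesenchymal cells, was at 623 to 662 CPM in resistant PC3 and at 0.632 to 0.985 in resistant DU145. TWIST1, a transcription factor that represses E-cadherin, was at 12.9 to 14.2 CPM in resistant PC3 and had no count in any resistant DU145 library.

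The list of 30 mesenchymal genes was mixed, with 15 higher in resistant PC3, 7 lower and 8 not passing (median log2 0.55, or 0.96 with genes without counts in a group set at their bound). VIM, the intermediate filament vimentin, went the other way, at 673 to 705 CPM in resistant PC3 and 1189 to 1273 in resistant DU145 (log2 -0.83 ± 0.03). ZEB1, another repressor of E-cadherin, was 1.94-fold higher in resistant PC3 (log2 0.96 ± 0.09), whereas the parental lines stood at 46.2 and 44.5 CPM. CDH2, CDH11, TWIST1 and TCF4 were already higher in parental PC3 (parental log2 differences of 8.58, 8.49, 9.30 and 8.51). COL1A2 and SPARC, a fibrillar collagen and a matrix protein, did not pass (adjusted p of 0.682 and 0.866). SPARC had been higher in PC3 before selection (parental log2 difference of 5.28), and PC3 went from a mean of 159 CPM to 1.19. Its line difference shifted by -5.12 (edgeR adjusted p = 0.00078). COL1A2 did not pass between the parents either (log2 -1.51, edgeR adjusted p = 0.195).

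Keratins, the intermediate filaments of epithelia, went both ways. KRT8, a simple epithelial keratin, was at 668 to 710 CPM in resistant DU145 and 63.8 to 67.9 in resistant PC3 (10.3-fold lower, log2 -3.37 ± 0.04). The hair-type keratin KRT81 was at 1743, 1785 and 1777 CPM in resistant PC3 and 2.56 to 3.58 in resistant DU145 (log2 9.10 ± 0.17). KRT86 was higher by 3.98 log2 units. KRT81 and KRT86 were already higher in parental PC3 (parental log2 differences of 5.11 and 1.54), where KRT8 was lower (-0.69). Of 12 keratins tested, 7 were higher in resistant PC3 and 4 (KRT7, KRT8, KRT18 and KRT80) lower. KRT81 and KRT86 are close paralogs, so reads may have been shared between them. KRT85, from the same family, was uneven: its values in resistant PC3 were 1.42, 81.6 and 6.67 CPM, and its log2 difference of 13.95 had a standard error of 3.70 (edgeR adjusted p = 0.0315). The call was lost on leaving out any 1 resistant DU145 library or any 1 parental PC3 library (edgeR adjusted p from 0.0585 to 0.0688), and it held at 11.07 without the second resistant PC3 library.

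Drug efflux transporters were lower in resistant PC3 for 9 of 11 genes and higher for 1 (median log2 -1.31 against -0.31 in the parental lines). ABCB1 was at 77.3, 71.9 and 63.5 CPM in resistant DU145 and at 0, 0.111 and 0 in resistant PC3, so only resistant DU145 of the 4 groups was above 1 CPM on average (log2 -10.91 ± 0.76, adjusted p = 6.24e-07). Its parental levels were 0.707 CPM in DU145 and 0.121 in PC3. ABCG2, another broad efflux pump, was at 1.58 to 3.06 CPM in resistant DU145 and at most 0.0478 in resistant PC3. ABCC2 (log2 -3.85), ABCC3 (log2 -1.80) and ABCC10 (log2 -1.41), pumps of the multidrug resistance protein family, were lower too. ABCC3 had been higher in parental PC3, at 352 CPM against 117. ABCC2 and ABCG2 were already lower in parental PC3 (parental log2 differences of -5.99 and -5.11), whereas ABCC10 did not pass there (-0.07). ABCB4, the phospholipid pump next to ABCB1 on chromosome 7, was under 0.11 CPM in every resistant library and did not pass (adjusted p = 0.729). Of 8 tested genes of taxane uptake and oxidation, 3 were lower in resistant PC3 and 5 did not pass. CYP1B1, an oxidase linked to taxane metabolism, was 70.5-fold lower in resistant PC3, and the uptake carrier SLCO1B3 was 2.11-fold lower. CYP1B1 was already lower in parental PC3 (parental log2 difference of -7.68), where SLCO1B3 was higher (0.59).

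Tubulin and its partners differed isotype by isotype. TUBB4A, a beta-tubulin of neurons, was at 71.5 to 83.0 CPM in resistant PC3 and 7.08 to 12.6 in resistant DU145 (log2 3.00 ± 0.17). TUBB6 went the opposite way, at 45.5 to 48.6 CPM in resistant PC3 against 234 to 253 (log2 -2.35 ± 0.05). TUBB3, the class III isotype often discussed with taxane resistance, was 1.51-fold lower in resistant PC3 (log2 -0.60 ± 0.07). The parental lines already differed in the same direction, with log2 differences of 2.745 for TUBB4A, -3.52 for TUBB6 and -0.18 for TUBB3. Over 18 tubulin genes, 11 were lower in resistant PC3, 6 higher and 1 (TUBD1) did not pass. Tubulin genes have near-identical copies that may share reads. Among 27 microtubule-associated proteins, 15 were higher in resistant PC3 and 6 lower (median log2 0.27). MAP1A was at 64.5 to 75.1 CPM in resistant PC3 and 1.88 to 2.00 in resistant DU145 (35.9-fold higher), and MAP9 was 9.93-fold higher. Both were already higher in parental PC3 (parental log2 differences of 1.44 and 2.56). MTUS1, a microtubule-binding tumor suppressor, was at 3.33 to 4.28 CPM in resistant PC3 and 41.5 to 48.9 in resistant DU145. In the parents it was at 29.6 CPM in PC3 and 0.0854 in DU145, the opposite order.

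**Figure D2:**
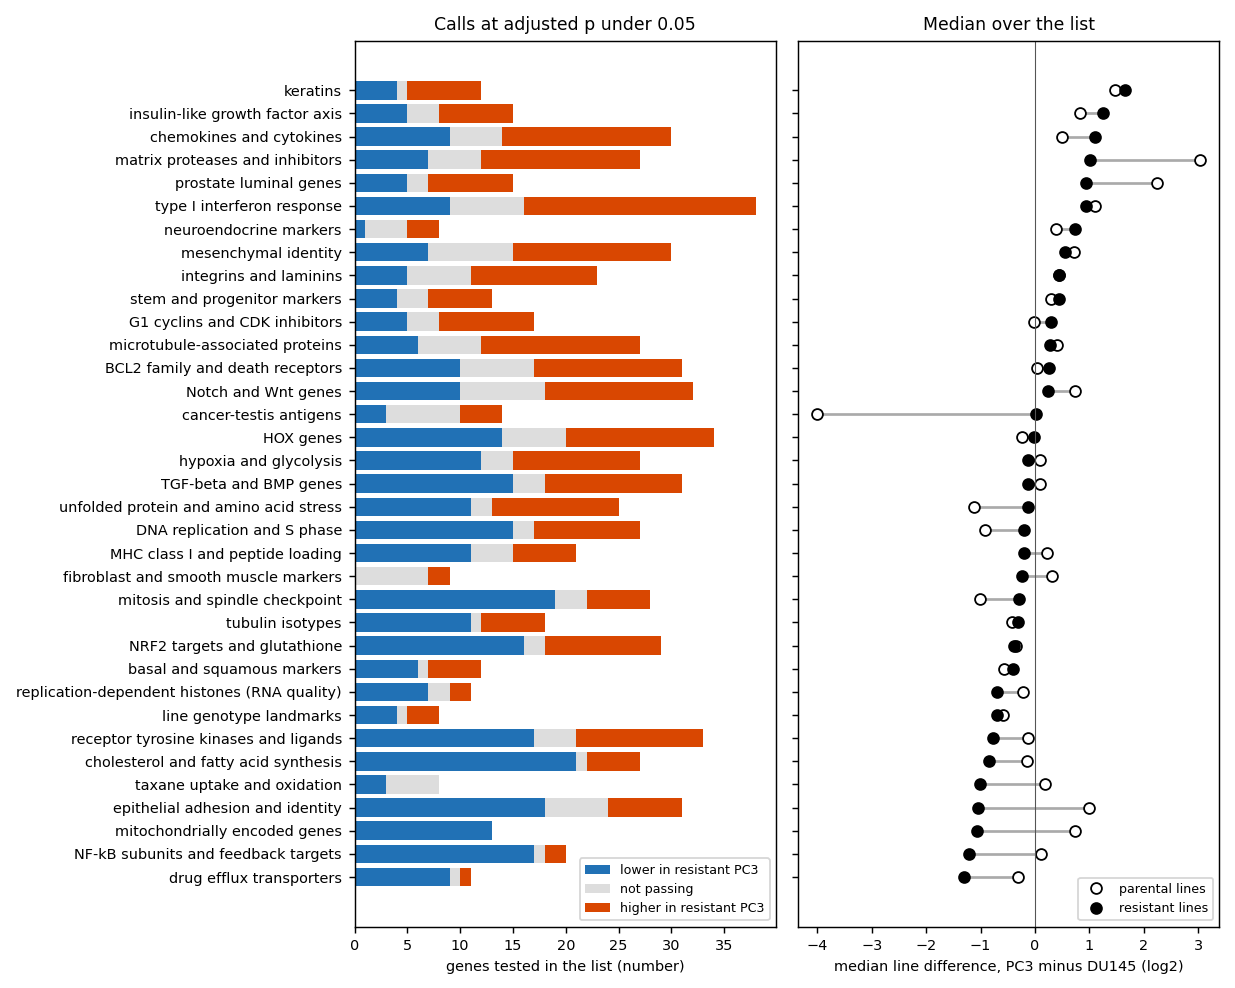
Left, the number of genes of each list that were lower, not passing or higher in resistant PC3 at an adjusted p under 0.05; right, the median log2 line difference (PC3 minus DU145) in parental lines (open) and resistant lines (filled), for lists with at least 8 tested genes. Epithelial adhesion genes move from a median of 0.99 in the parents to -1.04 in the resistant lines, and mitochondrially encoded genes from 0.73 to -1.07.

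Cytokines, growth factors and proteases included several of the widest differences. IL1B, interleukin 1 beta, was at 297, 298 and 262 CPM in resistant PC3 and at most 0.242 in resistant DU145 (log2 11.12 ± 0.28). CSF3, the granulocyte colony-stimulating factor, was at 66.7, 76.5 and 56.5 CPM against at most 0.0603. CSF2, which drives granulocytes and macrophages, was at 9.53, 11.8 and 9.53 CPM in resistant PC3 and at most 0.106 in resistant DU145, after 1.15 CPM in the PC3 parent and 7.56 in the DU145 parent. Of 30 chemokines and cytokines, 16 were higher in resistant PC3 and 9 lower (median log2 1.11, or 1.01 with bounds). CCL5, a T cell chemokine, was lower by 5.96 log2 units.

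An activator and an inhibitor of the plasmin system were both higher in resistant PC3. PLAT, the tissue plasminogen activator, was at 1154, 1190 and 1131 CPM in resistant PC3 and 3.76 to 5.00 in resistant DU145 (272-fold). SERPINB2, an inhibitor of plasminogen activators, was at 65.5 to 67.1 CPM against at most 0.216. Both were already higher in parental PC3 (parental log2 differences of 4.055 for PLAT and 5.075 for SERPINB2). Of 27 matrix proteases and inhibitors, 15 were higher and 7 lower (median log2 1.01). In the parental lines that median was 3.04.

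NF-kB subunits and feedback targets were lower in resistant PC3 for 17 of 20 genes and higher for 2 (median log2 -1.21 against 0.12 in the parents). TNFAIP2, induced by tumor necrosis factor, was at 25.7 to 26.8 CPM in resistant PC3 and 334 to 367 in resistant DU145 (log2 -3.74 ± 0.06). TRAF1, a signalling adaptor, was 10.7-fold lower and NFKBIE, an inhibitor of NF-kB, 4.27-fold lower. NFKBIZ, a nuclear cofactor, was higher (log2 2.05 ± 0.10). The type I interferon list ran the other way in count, with 22 of 38 higher and 9 lower. Its median log2 difference was 0.93 against 1.1 in the parents, where 27 were higher in PC3 and 11 lower. IFITM3 was 9.65-fold higher in resistant PC3, while OASL (12.6-fold) and IFIT3 (10.6-fold), all induced by interferon, were lower.

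Growth factor receptors and ligands were lower in resistant PC3 for 17 of 33 genes and higher for 12. EREG, an EGF receptor ligand, was at 3.74 to 4.10 CPM in resistant PC3 and 227 to 260 in resistant DU145. EGFR itself was 2.26-fold lower in resistant PC3 (log2 -1.17 ± 0.04), and its line difference after selection departed from that before by 0.02 (adjusted p = 0.799). The level was 504 to 515 CPM in resistant DU145 and 201 in parental DU145, and 221 to 233 in resistant PC3 and 87.7 in parental PC3. EFNB1, an ephrin ligand, was 29.5-fold higher in resistant PC3. TGFA and HBEGF, also EGF receptor ligands, did not pass. VEGFA, the angiogenic growth factor, was at 61.3 to 70.3 CPM in resistant PC3 and 512 to 538 in resistant DU145 (8.20-fold lower). The activin subunits INHBB (log2 10.69) and INHBA (log2 7.91) were higher in resistant PC3, and TGFBI, a matrix protein induced by TGF-beta, was 149-fold lower. FZD8, a Wnt receptor, and the ligand WNT7A were 388-fold and 288-fold higher, while the Wnt antagonist SFRP1 was 44.4-fold lower.

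Genes of lineage and of cell death also separated the resistant lines. HOXB13, a homeobox factor of the prostate, was at 132, 139.5 and 113 CPM in resistant PC3 and at 0, 0.370 and 0.894 in resistant DU145 (305-fold, log2 8.25 ± 0.42, adjusted p = 1.43e-07). Parental PC3 held 901 ± 10.8 CPM (SD, n = 3) and parental DU145 0.364 ± 0.044. No resistant PC3 library overlapped resistant DU145. Of 15 tested genes of the prostate lineage, 8 were higher in resistant PC3, 5 lower and 2 did not pass (median log2 0.94, parental 2.24). GATA2 (10.2-fold), a zinc finger transcription factor, and PMEPA1 (86.2-fold), an androgen-induced gene, were lower in resistant PC3. UCHL1, a neuronal ubiquitin hydrolase, was at 628 to 706 CPM in resistant DU145 and 0.796 to 1.33 in resistant PC3. In the parents it was at 885 CPM in DU145 and 0.704 in PC3. Between the resistant lines UCHL1 was the 1 lower gene among 8 neuroendocrine markers tested, of which 3 were higher, ENO2 (log2 0.94) and PEG10 (log2 0.55) among them, and 4 did not pass (median log2 0.74).

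TNFRSF10D, a decoy receptor for the death ligand TRAIL, was at 0.135 to 0.175 CPM in resistant PC3 and 106 to 121 in resistant DU145. The death receptor FAS was 19.0-fold lower and CFLAR, an inhibitor of caspase-8, 5.01-fold lower. BCL2A1, an anti-apoptotic BCL2 relative, was at 16.2 to 20.1 CPM in resistant PC3 and at most 0.333 in resistant DU145. Over 31 genes of the BCL2 family and death receptors, 14 were higher, 10 lower and 7 did not pass. CDKN1A, the p21 inhibitor of cyclin-dependent kinases, was 6.63-fold lower in resistant PC3, with parental levels of 33.4 and 32.9 CPM.

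Proliferation genes differed in count but little in size. Of 28 mitosis genes 19 were lower in resistant PC3 and 6 higher, with only 2 at 1 log2 unit or more (median log2 -0.29, parental -1.01). AURKB, a mitotic kinase, was 2.56-fold lower and PRC1, a spindle midzone protein, 2.17-fold lower. Of 27 replication genes 15 were lower and 10 higher (median log2 -0.21, parental -0.92). MCM10 was 4.17-fold lower. Among 27 cholesterol and fatty acid synthesis genes, 21 were lower and 5 higher (median log2 -0.85). IDI1, an isoprenoid enzyme, was 6.33-fold lower, SCD, which desaturates fatty acids, 3.96-fold lower and SREBF2, the transcription factor of the pathway, 3.17-fold lower.

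All 13 mitochondrially encoded protein genes were lower in resistant PC3 (median log2 -1.07), after all 13 had been higher in parental PC3 (median 0.73). MT-CO3, a subunit of cytochrome oxidase, was at 1955 to 1979 CPM in resistant PC3 and 5346 to 5906 in resistant DU145. The mitochondrial share of counts was 3.50% ± 0.04 (SD, n = 3) in resistant PC3 and 7.08% ± 0.05 in resistant DU145. An exact two-sided permutation test gave p = 0.1, the smallest that 3 against 3 allows. Of 11 replication-dependent histone genes, whose messages mostly lack a poly(A) tail, 7 were lower in resistant PC3 and 2 higher. The part of poly(A) capture or RNA quality in these differences was not tested.

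Markers of cell types that a pure culture should lack were also searched. Of 5 tested leukocyte markers, CD68 and CD79A were higher in resistant PC3 and the rest did not pass, and PTPRC, CD3E, LYZ and MS4A1 were among those not tested. Of 9 fibroblast and smooth muscle markers 2 were higher and 7 did not pass. Of 7 endothelial markers 3 were higher and 1 lower: KDR was at 40.8 CPM and PECAM1 at 27.3 in resistant PC3 against 0.197 and 0.326 in resistant DU145, while CDH5, EMCN and PLVAP were not tested. In the parents 5 of the 7 endothelial markers were higher in PC3 and 1 lower (median log2 5.92). The part of other cell types in the other differences was not tested.

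Some genes were present in one resistant line and had no count in the other. Of genes with at least 10 CPM in resistant DU145, 22 had no count in resistant PC3, and 20 had the reverse pattern. With a limit of under 0.1 CPM in place of no count, there were 103 and 85. Of these 188 genes 123 were also under 0.1 CPM in the parent of the low line, and 71 of them also had at least 10 CPM in the parent of the high line. By edgeR's fitted log2 difference, the 12 largest with PC3 higher were TRHDE-AS1, GPR4, KRT85, CD33, PLPPR5, SYT9, TNS4, CCRL2, PALMD, TFF2, LINC01204 and TWIST1. The 12 largest with PC3 lower were PRXL2A, GNG4, ZNF229, LHFPL4, CA2, MYBPH, PLEKHS1, ZFP82, DGCR5, HEYL, CAVIN3 and SLC47A1. None of the 24 had a count on the low side. Their fitted differences depend on the small count that edgeR adds, so their order against genes with counts in both lines, such as CDH2, is not fixed. Their folds are bounds, computed as if the silent line had 3 counts in all.

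GPR4, a proton-sensing receptor, was at 35.7, 29.3 and 30.7 CPM in resistant PC3 (at least 2096-fold higher). TRHDE-AS1, an antisense RNA, was at 31.6, 32.6 and 33.7 CPM (at least 2143-fold). PRXL2A, a peroxiredoxin-like protein, was at 57.4, 56.6 and 61.0 CPM in resistant DU145 (at least 3889-fold higher there), and GNG4, a G protein gamma subunit, at 31.0, 26.9 and 33.6 (at least 2036-fold). The variance of low counts between libraries averaged 7.69 to 8.39 times the mean, so the counts do not behave as independent molecules, and these bounds may be too high by about that factor.

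The RefSeq promoters of these 4 genes are shown because each was silent in one resistant line and well expressed in the other. All 4 already differed in the same direction before selection. Their parental log2 differences were 9.61 for TRHDE-AS1, 9.51 for GPR4, -10.01 for PRXL2A and -7.41 for GNG4. The lower parent averaged at most 0.0739 CPM for each. Each runs over the 250 bases before a start site given by RefSeq (GRCh38.p14), 5′ to 3′ on the gene's strand, with every CG dinucleotide in capitals. TRHDE-AS1 lies on chr12:72273510-72273759 and GPR4 on chr19:45602213-45602462, both on the minus strand. PRXL2A lies on chr10:80408301-80408550 on the plus strand and GNG4 on chr1:235650609-235650858 on the minus strand. By the deposited gene coordinates, the stretches of TRHDE-AS1 and PRXL2A lie inside the genes, and that of GNG4 partly does. Which start site these cells use was not tested.
TRHDE-AS1: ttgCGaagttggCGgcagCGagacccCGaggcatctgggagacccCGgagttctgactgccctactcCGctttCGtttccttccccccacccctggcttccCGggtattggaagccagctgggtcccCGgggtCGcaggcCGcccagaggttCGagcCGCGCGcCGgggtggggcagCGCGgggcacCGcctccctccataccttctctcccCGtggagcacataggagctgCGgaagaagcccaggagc
GPR4: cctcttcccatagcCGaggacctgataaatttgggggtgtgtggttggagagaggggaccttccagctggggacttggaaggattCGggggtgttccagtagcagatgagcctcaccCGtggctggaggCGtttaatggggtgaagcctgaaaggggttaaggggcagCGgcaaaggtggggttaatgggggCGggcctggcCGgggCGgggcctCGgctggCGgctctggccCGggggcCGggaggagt
PRXL2A: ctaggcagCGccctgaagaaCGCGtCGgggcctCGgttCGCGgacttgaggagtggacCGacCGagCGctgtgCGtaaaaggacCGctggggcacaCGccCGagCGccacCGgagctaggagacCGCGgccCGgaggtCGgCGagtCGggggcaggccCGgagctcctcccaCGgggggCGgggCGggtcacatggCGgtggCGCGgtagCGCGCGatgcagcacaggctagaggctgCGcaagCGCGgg
GNG4: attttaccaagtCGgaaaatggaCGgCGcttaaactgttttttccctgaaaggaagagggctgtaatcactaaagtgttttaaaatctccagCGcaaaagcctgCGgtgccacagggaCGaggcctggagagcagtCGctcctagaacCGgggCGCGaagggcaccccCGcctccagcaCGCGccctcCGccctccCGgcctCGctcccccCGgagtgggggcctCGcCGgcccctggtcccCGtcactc
The stretches hold 21, 12, 35 and 20 CG dinucleotides in that order.

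Over the 300 bases of the RefSeq table, the ratio of observed to expected CG was at least 0.6 for 75.2% of the 13326 tested genes with a promoter entry and for 88.8% of those with at least 10 CPM in both resistant lines. It was 70.6% of the 68 matched genes that were off in resistant PC3 and 54.2% of the 59 that were off in resistant DU145, against 49.0% of all promoters in the table. GGGCGG or its reverse complement CCGCCC stood in the 250 bases of 50.0% and 50.9% of the same 68 and 59 genes. The share was 62.6% of tested genes with a promoter entry and 70.1% of those with at least 10 CPM in both resistant lines. CACCTG or its reverse complement CAGGTG, letters to which ZEB and TWIST factors can bind, stood in 20.6% and 8.47% of the 68 and 59 genes. Its shares in the same backgrounds were 16.4% and 14.6%. These are descriptions of letters in a window, and methylation was not measured here.

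The parental lines differed about as widely as the resistant lines: 60.3% of genes were called and 35.9% (8667) at 2-fold or more. Of the 8321 genes with a 2-fold difference after selection, 4823 also had one in the same direction before, 58.0% of those after and 55.7% of those before. A further 3159 genes passed at 2-fold after selection and not before, and the difference of the differences was itself called at 1 log2 unit for 1404 of them. The reverse held for 3505 genes, of which 1571 were called in that test, and 339 genes turned round. Among 12798 genes with at least 5 CPM in a resistant line, the line difference after selection had a Pearson correlation of 0.765 and a Spearman correlation of 0.658 with that before, across genes that share 12 libraries and are not independent. Their median absolute difference was 0.68 log2 units after and 0.72 before.

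**Figure D3:**
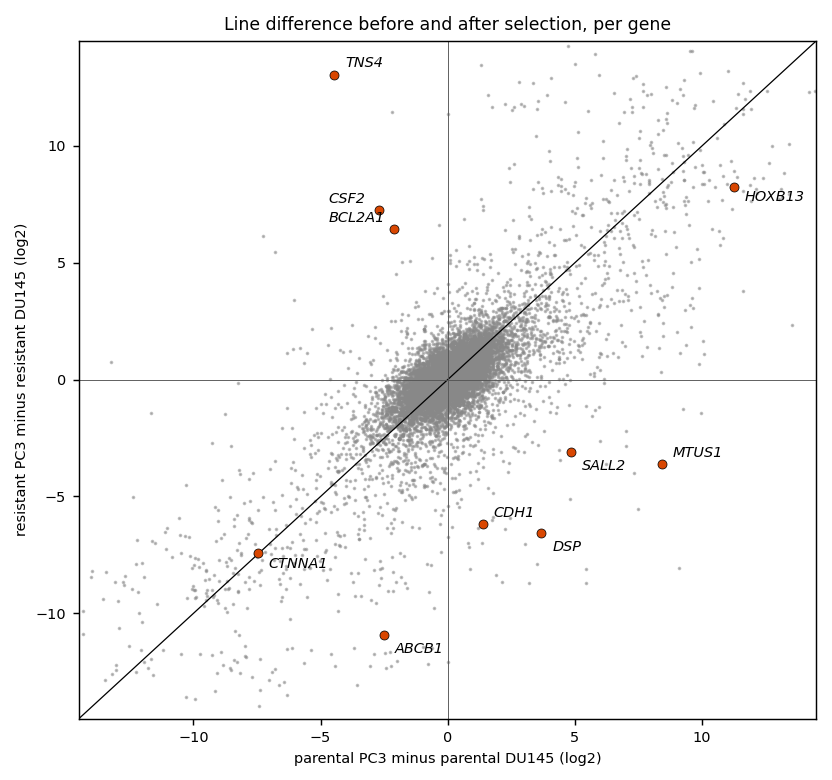
Log2 line difference (PC3 minus DU145) in the resistant lines against the parental lines, 1 grey point per gene with at least 5 CPM in a resistant line; the diagonal marks no change of the line difference, and a few points lie outside the axes. CTNNA1 lies on the diagonal (-7.48 and -7.42), while TNS4 (-4.47 and 13.05), DSP (3.69 and -6.57) and MTUS1 (8.42 and -3.63) lie in the quadrants where the sign turned.

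The difference of the differences itself was tested. It was called for 42.1% of genes, and for 21.1% (5089) at 1 log2 unit or more. TNS4, a focal adhesion protein, was at 22.5 ± 2.4 CPM in parental DU145 and had no count in resistant DU145, while PC3 went from 1.01 ± 0.66 to 16.0 ± 1.6 CPM. MSMP, a secreted microseminoprotein relative, went from 4267 CPM in parental PC3 to 1.16 to 2.20 in resistant PC3, with DU145 under 0.2 CPM on average throughout. SERPINA1, alpha-1 antitrypsin, was at 48.6 to 54.5 CPM in resistant DU145 and at most 0.341 in resistant PC3, against 0.582 and 6.65 CPM in the parents.

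The 10 genes that the rule singled out among the 339 were all under 2 CPM in both parents, and 8 of them were under 4 CPM in every resistant library, so a count of at least 10 CPM before and after was asked for in addition once the values had been seen. Higher in resistant PC3 after a reversal were TNS4, LHX1, PIK3AP1, NFASC, CCBE1, BCL2A1, CD24 and CXCL2. Lower were DSP, MTUS1, FAM110C, SALL2, SDK1, LTBP2, PCDHGB2 and BICC1. CD24, a surface glycoprotein, was at 255 to 266 CPM in resistant PC3 and 69.6 to 74.9 in resistant DU145, after 15.1 in parental PC3 and 131 in parental DU145. PIK3AP1, an adaptor of PI3 kinase, was at 80.8 to 82.2 against 5.73 to 7.98, after 2.38 CPM in parental PC3, which was then the lower line. LTBP2, a TGF-beta binding matrix protein, was at 7.42 to 9.19 against 68.8 to 71.6, after 63.6 and 9.45.

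Line differences were uneven over the genome. Of 433 chromosome X genes with at least 5 CPM in a resistant line, 82.7% were higher in resistant PC3 and 9.70% lower, with a median log2 difference of 1.09 (parental 0.70). On chromosome 20, 70.5% of 343 genes were higher (median 0.61), and on chromosome 3 62.3% of 732 (median 0.49). On chromosome 9, 69.9% of 532 genes were lower (median -0.64, parental -0.86). Over all 12798 genes 43.2% were higher and 38.1% lower, with a median of 0.05. Chromosome 14 had a median of 0.21 in the parents and -0.39 after selection. EFNB1 and LINC01204, named above, lie on chromosome X. Copy number was not measured here, and its part in these medians was not tested.

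**Figure D4:**
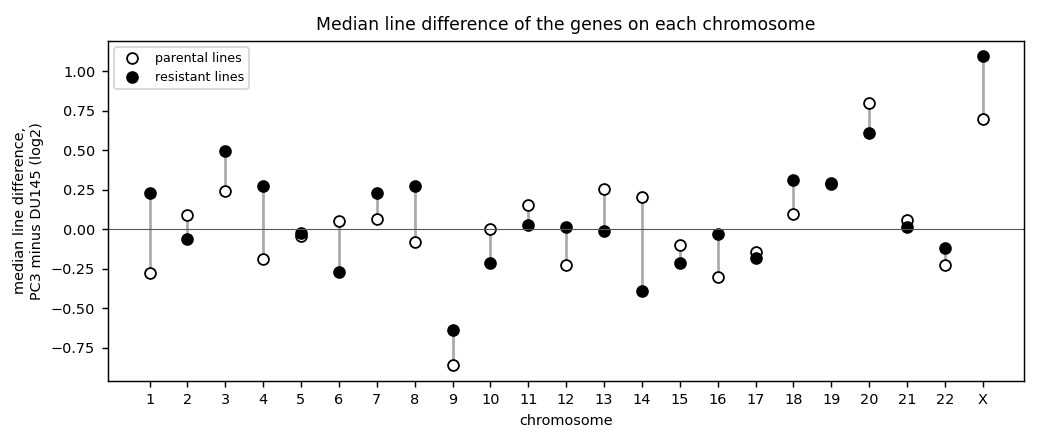
Median log2 line difference (PC3 minus DU145) of the genes on chromosomes 1 to 22 and X with at least 5 CPM in a resistant line, in parental lines (open) and resistant lines (filled). Among these, X stands highest after selection at 1.09 and chromosome 9 lowest at -0.64.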

How the data were processed

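Messenger RNA was selected with oligo(dT) and made into dUTP-marked libraries, per the labels' protocols. Tools listed in the submitters' processing notes are HISAT2 2.0.4, cutadapt 1.9, edgeR, DESeq2 and StringTie 1.3.4d, with no order given, and the build listed is hg18. The coordinates in the tables are those of GRCh38: of 37385 genes also in GENCODE release 29, 37345 overlapped their entry. The authors deposited 1 table per sample that holds, for each gene, a count in whole numbers and its FPKM. How reads were counted, with or without strand, is not given in the sources used here, so genes that share exons with another gene are uncertain. Among those described this applies to CDH1, CTNNA1, KRT8, KRT86, MTUS1, TWIST1, ZEB1, VIM, CDH11, EGFR, TUBB3, TUBB4A, TUBB6, CYP1B1, MSMP, GPR4, TRHDE-AS1 and others.

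Genes were filtered with filterByExpr and scaled with TMM, and 1 mean per group was fitted over all 12 libraries (8 residual degrees of freedom) with edgeR 4.0.16 in R 4.3.3. Contrasts were the line difference in resistant cells, in parental cells, and the first minus the second. Two-sided quasi-likelihood F tests were adjusted by Benjamini-Hochberg over 24128 genes, and scripts were tested on simulated data. CPM are counts per 1000000 of the TMM-scaled library, and folds are ratios of mean CPM. A standard error is the size of the log2 difference divided by the square root of F. Where a group had no count, the fold is a lower bound that assigns the group 3 counts. FPKM entered alternatives with limma 3.58.1, and DESeq2 1.42.0 was a further alternative. The members and the 37 gene lists were chosen with earlier results of these data known. Named were the 12 largest differences each way (at least 10 CPM in the higher group, groups not overlapping), the 8 largest differences of differences each way (at least 10 CPM in some group), 5 reversed genes each way, fixed landmarks, and in each list the 4 largest with at least 5 CPM plus up to 2 that did not pass. A few named genes are not reported here.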

Additional observations from a re-analysis of the deposited data

Results flagged for a closer look

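The line difference in the resistant cells departed from that in the parental cells, by the test of the difference itself, for 10150 genes, and for 5089 of them by at least 1 log2 unit. Values in parentheses below are the log2 line difference after selection minus that before, from edgeR's quasi-likelihood test with an adjusted p under 0.05, and a value for a gene with a group at 0 depends on the small count edgeR adds.

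Among genes with a mean of at least 10 CPM in some group, the widest shifts towards PC3 were those of TNS4 (17.52), CD33 (12.16), AP1M2 (12.16), RAB4B-EGLN2 (11.88), CSF2 (9.96), ACP7 (9.91), LHX1 (9.45) and EYA1 (9.34). RAB4B-EGLN2 is a readthrough gene whose reads may belong to its neighbours, and its difference between the resistant lines was lost under 12 alternatives, among them leaving out any 1 resistant DU145 library or the first resistant PC3 library (edgeR adjusted p = 0.349). Under the same limit, the widest shifts towards DU145 were those of SLC22A17 (-14.62), PTPRO (-14.13), NOS1 (-13.31), MTUS1 (-12.05), SERPINA1 (-11.39), MYH14 (-11.38), KIAA0040 (-11.31) and MSMP (-11.26). That of PTPRO was lost without the first parental PC3 library (edgeR adjusted p = 1). AP1M2 and NOS1 did not differ between the resistant lines at an adjusted p under 0.05 (0.451 and 0.380), and NOS1 did without the first resistant PC3 library (edgeR adjusted p = 0.0423).

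Genes that the rule named because their line difference turned round were mostly near the detection limit. Higher in PC3 after selection were FAM90A20P (13.98), LINC00524 (12.94), ADAMTS14 (13.40), RPSAP13 (12.31) and ADAMTS19 (12.67). For ADAMTS19 and LINC00524 the resistant libraries of the lines overlapped at 0, and the difference between the resistant lines was lost under 13 and 8 alternatives, among them leaving out any 1 resistant DU145 library and fitting only the 6 resistant libraries. Lower in PC3 after selection were GLB1L3 (-18.33), CCDC173 (-16.59), CBLC (-17.14), EPHB1 (-16.91) and RAMP2 (-13.86). RAMP2 lost its difference between the resistant lines under 12 alternatives, and its shift too without the first resistant DU145 library (edgeR adjusted p = 1). With at least 10 CPM before and after, a limit added after the values had been seen, PIK3AP1 (6.15), NFASC (6.09), CCBE1 (6.78), BCL2A1 (8.56), CD24 (4.98) and CXCL2 (3.93) were higher and DSP (-10.26), FAM110C (-9.84), SALL2 (-7.94), SDK1 (-9.83), LTBP2 (-5.82), PCDHGB2 (-5.98) and BICC1 (-8.62) lower.

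Of the landmark genes, the shift was towards PC3 for ZEB1 (1.01), and towards DU145 for ABCB1 (-8.40), CDH1 (-7.57), TUBB3 (-0.41), VIM (-0.40), RB1 (-0.37) and STK11 (-0.34).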

How the results depend on the processing

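The number of genes that differed between the resistant lines was 13630 to 14363 when 1 library was left out, and 6153 (3203 higher, 2950 lower) when the test asked for more than 1 log2 unit (glmTreat). The number at 1 log2 unit or more was 3666 with limma on log2(FPKM + 1), 4602 among genes with at least 5 CPM in 3 libraries, and 4441 among genes with at least 5 CPM in a resistant line, a limit added after seeing the data. For the parental lines these 3 counts were 4204, 5047 and 4666. For the difference of differences they were 2762 with limma on log2(FPKM + 1) and 3292 with the added limit. Genes that turned round numbered 339 and became 77, 203 and 169 under the same 3 settings. The other settings kept each of these counts within 1.5 times. Upper quartile scaling moved the median difference of all genes to -0.12. GAPDH, at -0.0919, was then called lower in resistant PC3, the opposite sign to its uncalled main value of 0.01. RAMP2, with counts in 1 resistant library, ranged from -7.26 to 0 when 1 library was left out, the 0 being without that library. The median of the Notch and Wnt list ranged from -0.0754, without the second resistant DU145 library, to 0.40. The median of the fibroblast list turned to 0.43 with the 5 CPM filter, and ranged from -1.45, without the third resistant PC3 library, to 0.21, without the first. Of 256 named genes, 42 crossed the threshold under at least 1 setting, 39 of them under a setting other than leaving out a library. KRT85 was lost with only the 6 resistant libraries (adjusted p = 0.165). The mitochondrial share differed by -3.60 to -3.55 percentage points when 1 library was left out. Libraries with the same number did not deviate together (correlations from -0.05 to -0.02 between the resistant lines), so the numbers are not taken to pair samples. With a replicate block 13932 genes differed between the resistant lines and 9759 in the difference of differences.

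The deposited counts vary more than independent molecules at low levels, which limits statements on genes under about 0.1 CPM. The resistant lines differ in line, dose history and resistance reached, which cannot be told apart.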

Other observations

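Insulin-like growth factor genes were higher in resistant PC3 for 7 of 15 tested and lower for 5, beside 30.6% and 29.1% over all genes and 43.2% and 38.1% over genes with at least 5 CPM in a resistant line. IGFBP4, a binding protein that restrains these growth factors, was at 1434 to 1521 CPM in resistant PC3 and 180 to 192 in resistant DU145. IGFBP6 was 10.9-fold higher, while IGFBP2, at 6.18 to 6.27 CPM in resistant DU145, was at most 0.0568 in resistant PC3. Integrins and laminins were higher for 12 of 23 and lower for 5. LAMA1, a laminin chain of early basement membranes, was 76.9-fold lower in resistant PC3, and LAMA3, of epithelial basement membranes, 12.4-fold higher. ITGB2, the leukocyte integrin beta chain, was 13.6-fold lower in resistant PC3, at 0.971 to 2.40 CPM, although parental PC3 held 56.2 CPM. NES, the intermediate filament nestin, was 22.6-fold higher in resistant PC3.

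Antigen presentation genes were lower in resistant PC3 for 11 of 21 tested and higher for 6. HLA-B was 3.12-fold lower and NLRC5, the transactivator of class I genes, lower by 3.17 log2 units, whereas B2M, the shared light chain, was at 362 to 410 CPM in resistant DU145 and 382 to 436 in resistant PC3 and did not pass (edgeR adjusted p = 0.287). Of 29 NRF2 targets and glutathione genes, 16 were lower and 11 higher. AKR1B1, an aldose reductase, was at 3.29 to 6.90 CPM in resistant PC3 and 339 to 364 in resistant DU145, and ALDH1A3, a retinaldehyde dehydrogenase, was 10.4-fold higher in resistant PC3. Stress genes were balanced, with 12 of 25 higher and 11 lower. DDIT4, an inhibitor of mTOR signalling, was 11.2-fold lower and the chaperone calreticulin (CALR) 3.09-fold higher. Hypoxia and glycolysis genes were also balanced, with 12 of 27 higher and 12 lower. HOX genes split evenly, 14 of 34 each way: HOXA13 was 43.1-fold and HOXA9 28.2-fold higher in resistant PC3, and HOXB7 103-fold lower.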
